A study of Danio rerio with 24 samples.

Results

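The 60 transcripts described here were those whose level in the jaw of larval zebrafish was higher with TCDD at 4 h while their average difference was small at 1, 2 and 12 h. Each was measured by 1 probe set, a group of short probes, as a rule for 1 transcript, on an Affymetrix zebrafish array. They were 60 of the 15617 probe sets in the deposited table. TCDD (2,3,7,8-tetrachlorodibenzo-p-dioxin) is a dioxin that enters cells and binds the aryl hydrocarbon receptor (AHR). The bound receptor moves into the nucleus, pairs with ARNT and raises transcription of genes such as those of the cytochrome P450 family 1, which include cyp1a.

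Larvae of the AB strain were kept in water with TCDD at 1 ng/ml or with vehicle, 0.1% DMSO, for 1 h from 96 h post fertilization (hpf). Jaws, meaning heads freed of eyes and brain, were taken 1, 2, 4 and 12 h after the exposure began, at 97, 98, 100 and 108 hpf. Every array held RNA of 10 pooled jaws, and at each time 3 arrays came from TCDD larvae and 3 from vehicle larvae; the study describes 3 independent time courses, and the labels do not say which arrays shared one. The small number of arrays limits the precision of every value, and a p-value here weighs a difference against the scatter among arrays, each a pool of jaws.

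The members were chosen from the measured values. The difference at a time is the mean log2 intensity of the 3 TCDD arrays minus that of the 3 vehicle arrays, so 1 on this scale is a doubling. Array controls, probe sets of 2 identifier numbers (1 of them that of cyp1a) and probe sets with a mean log2 intensity under 4 over the 24 arrays were left out, which kept 8781. Of these, 1754 had an absolute difference under 0.2 at 1, 2 and 12 h. Among the 1754, 114 had all 3 TCDD arrays above all 3 vehicle arrays at 4 h, and the 60 with the largest difference at 4 h were kept. The higher level at 4 h and the small differences at the other times were therefore set by the choice, and they are given as a description with no test. Just inside the limit stood nrip1b, gpatch3 and a probe set with no gene symbol, with differences of 0.31, 0.30 and 0.30. Just outside it stood maf1a, slc39a3 and tmem59, with differences of 0.30 each. The choice therefore divides transcripts that had nearly the same values.

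A gene symbol was available for 42 of the 60 members, all different genes, and 18 had none. By its type, 1 of the 18, ranked 24 by the difference at 4 h, can also pick up near-identical transcripts. Of 18 lists of cell type markers and pathways, 1 member, mmp9, was in any. Each list covered only 5 to 45 of the 15502 tested probe sets. Few of any 60 probe sets would therefore be listed, and nothing is read from that count. None of the 13 measured genes on the list of AHR targets was a member. The choice had left out the identifier number of cyp1a and any probe set beyond the limit for differences at the other times. Targets on that list that changed at those times could thus not be members, and nothing is read from their absence. As a check of the labels, 5 of the 17 probe sets of that list were higher with TCDD at 4 h by limma's test, led by cyp1a, which averaged 13.85 ± 0.12 with TCDD and 10.08 ± 0.70 in vehicle (log2 intensity, SD, n = 3 each). As a rough check of the tissue, each marker list was set against the brightest of 3 probe sets for reporter proteins that these fish lack, which averaged 2.63 at 4 h. The medians of cartilage (8.58), muscle (8.87) and epidermis markers (10.83) lay far above that background, and the median of gut, liver and pancreas markers (2.80) lay near it. Those of endothelium (3.26), lens and retina (3.73), blood (3.81) and pigment markers (4.61) lay between. Since probes bind unequally, the lists are not ranked among themselves. Neural markers lay above background too, at a median of 7.56, although the brain was removed. Their median difference at 4 h was -0.37, none of their 20 probe sets passed limma's test, 4 had an unadjusted p under 0.05, and their summed intensity was 4637 to 5706 with TCDD and 4981 to 7970 in vehicle. Whether those markers bear on the members was not tested, and in pooled tissue fewer cells of a type and less RNA per cell cannot be told apart.

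The differences of the 60 members at 4 h ran between 0.30 and 0.72, with a median of 0.43, or 1.35-fold. The median over all 15502 tested probe sets was -0.00. The difference was at least 0.5 in 19 members, and the largest, 0.72, is 1.64-fold. At 1, 2 and 12 h their median differences were 0.04, 0.03 and 0.03, within the limits that the choice set. The difference at 4 h was over 3 times the largest absolute difference at the other times in 30 members. The absolute difference was under 0.1 at each of the other times in 11 members. The mean log2 intensity of a member over 24 arrays ran between 4.19 and 9.13, and was under 5 in 17 members. The lowest group mean of a member at 4 h was 3.70, which was 1.07 above the brightest reporter probe set.

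**Figure D1:**
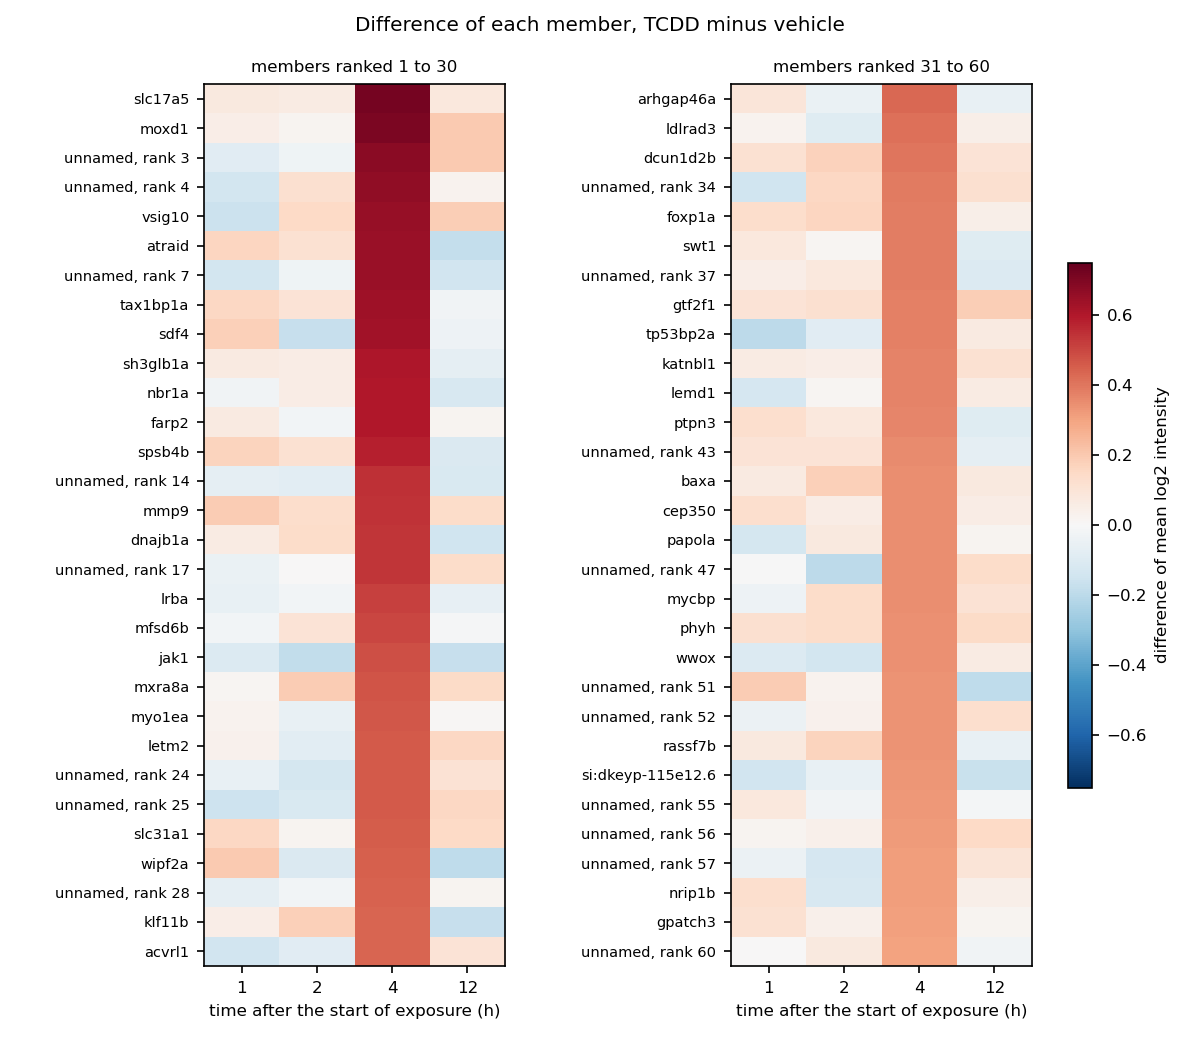
Heat map of the difference of mean log2 intensity, TCDD minus vehicle, for the 60 members (rows, largest difference at 4 h at the top left) at 1, 2, 4 and 12 h (columns), with red for higher with TCDD. The 4 h column is between 0.30 and 0.72 in every row, and the other columns lie within the 0.2 that the choice allowed.

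The gap between the lowest TCDD array and the highest vehicle array at 4 h had a median of 0.14 over the members, with a range of 0.00275 to 0.396, and it was under 0.1 in 24. All 60 were apart by choice with TCDD above, against 3.61% of the 15502 tested probe sets (2.53% were apart with TCDD below) and 6.5% of the 1754 that met the other conditions. By limma's test with Benjamini-Hochberg adjustment over all 15502 probe sets, 4 of the 60 members had an adjusted p under 0.05 at 4 h, against 0.323% of all tested probe sets called higher. These were sh3glb1a, spsb4b, mfsd6b and 1 probe set with no symbol, ranked 28. Since the members were chosen on the same contrast, nothing is read from that count. It was 2 without TCDD replicate 1, 2 without TCDD replicate 3, 1 without vehicle replicate 1, 1 without vehicle replicate 3, and 0 in the fit of the 6 arrays of 4 h alone. An unadjusted p under 0.05 was found in 47 members, against 3.44% of all tested probe sets in that direction. At 1, 2 and 12 h no member was called. The choice had kept only probe sets with small differences at those times, so nothing is read from the lack of calls there.

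The members named next were the first 20 by difference that had a symbol, with the log2 intensity of TCDD replicates 1, 2 and 3 followed by that of vehicle replicates 1, 2 and 3, all at 4 h. In each of them all TCDD arrays were above all vehicle arrays by choice, so the gap and the spread are what the arrays add. The standard error (SE) of a difference is that of the limma fit.

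Of these genes, 3 code for proteins of autophagy, in which cargo is wrapped in membrane and delivered to lysosomes for breakdown. sh3glb1a codes for endophilin B1, a protein that bends membranes and binds BAX in mammals. It had 8.39, 8.40 and 8.25 in TCDD jaws and 7.67, 7.91 and 7.65 in vehicle jaws, a difference of 0.60 (SE 0.09). Its TCDD arrays lay within a narrow band, well clear of the highest vehicle array. It had the lowest adjusted p of the 60 (limma, adjusted p = 0.00285), and its differences were 0.07, 0.05 and -0.07 at 1, 2 and 12 h. nbr1a and tax1bp1a code for cargo receptors, which tether ubiquitin-tagged material to the forming autophagosome. nbr1a had 7.86, 7.83 and 7.99 in TCDD jaws and 6.83, 7.63 and 7.41 in vehicle jaws, a difference of 0.60 (SE 0.23). The vehicle arrays were the uneven ones there, with replicate 1 far below the other vehicle arrays, and the difference was 0.37 without it and 0.34 with arrays weighted by their spread. tax1bp1a had 4.85, 4.54 and 5.44 in TCDD jaws and 4.42, 4.25 and 4.26 in vehicle jaws, a difference of 0.63 (SE 0.21), and here the TCDD arrays were uneven, with replicate 3 on top. Its difference was 0.39 without TCDD replicate 3, and also 0.39 with an offset of 16 added before taking log2.

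Other members act in lysosomes, the Golgi and vesicle traffic. slc17a5 codes for sialin, which carries sialic acid out of lysosomes, and it had the largest difference of all. It had 6.67, 6.62 and 6.67 in TCDD jaws and 5.19, 6.57 and 6.05 in vehicle jaws, a difference of 0.72 (SE 0.25). Its vehicle replicate 2 lay only 0.05 below the lowest TCDD array, while replicate 1 lay far lower, so the size of the difference rests on the vehicle arrays: it was 0.34 without vehicle replicate 1 and 0.29 with array weights. sdf4 codes for Cab45, a calcium-binding protein of the Golgi lumen, and had 8.88, 8.72 and 9.19 in TCDD jaws against 8.26, 8.43 and 8.21 in vehicle jaws, a difference of 0.63 (SE 0.16). lrba, whose product acts in vesicle traffic, had 9.65, 9.32 and 9.26 in TCDD jaws and 8.84, 8.90 and 8.95 in vehicle jaws, a difference of 0.52 (SE 0.20). For both, the 3 vehicle arrays lay close together and the TCDD arrays were more spread.

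dnajb1a codes for a J-domain partner (Hsp40) that hands unfolded proteins to Hsp70, and spsb4b for a SOCS-box protein that brings substrates to a ubiquitin ligase. dnajb1a had 4.68, 4.96 and 4.86 in TCDD jaws and 4.46, 4.33 and 4.10 in vehicle jaws, a difference of 0.54 (SE 0.13). spsb4b had 6.58, 6.90 and 6.73 in TCDD jaws and 6.03, 6.30 and 6.13 in vehicle jaws, a difference of 0.58 (SE 0.12, limma adjusted p = 0.0253). In both genes the spread within each treatment was under the distance between the treatments, and for dnajb1a the difference was 0.32 with an offset of 16 added before taking log2.

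Signalling members covered a kinase, an exchange factor and a retinoid-linked gene. jak1 codes for a tyrosine kinase bound to cytokine receptors, and had 7.47, 7.06 and 7.38 in TCDD jaws and 6.73, 6.75 and 6.98 in vehicle jaws, a difference of 0.48 (SE 0.16). Its TCDD replicate 2 and vehicle replicate 3 were 0.08 apart, and its differences at 1, 2 and 12 h were below 0, at -0.10, -0.19 and -0.17. farp2 codes for an exchange factor that activates Rac-type GTPases, and had 7.98, 8.30 and 8.12 in TCDD jaws against 7.64, 7.71 and 7.24 in vehicle jaws, a difference of 0.60 (SE 0.15). atraid was first described in human cells as a gene switched on by all-trans retinoic acid. It had 5.93, 5.80 and 6.43 in TCDD jaws and 4.97, 5.73 and 5.52 in vehicle jaws, a difference of 0.65 with the widest error of the 20 (SE 0.32). Its TCDD replicate 2 lay just above vehicle replicate 2, and its difference was 0.43 without vehicle replicate 1 and 0.31 with array weights.

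At the cell surface and in the matrix stood mmp9, mxra8a, vsig10 and moxd1. mmp9 codes for gelatinase B, a secreted protease of extracellular matrix made by white blood cells and by tissue under repair. It had 6.04, 5.69 and 5.69 in TCDD jaws and 4.98, 5.34 and 5.46 in vehicle jaws, a difference of 0.54 (SE 0.31). The difference was 0.29 without replicate 1 of every group, so the arrays of that number carried much of it. mxra8a codes for a membrane protein with immunoglobulin domains, the mammalian form of which is a receptor for alphaviruses. It had 6.71, 6.69 and 6.84 in TCDD jaws and 6.24, 6.29 and 6.29 in vehicle jaws, a difference of 0.47 (SE 0.25), and its gap of 0.40 was the widest of the 60. vsig10, also a membrane protein with immunoglobulin domains, had 7.69, 6.86 and 6.95 in TCDD jaws and 6.39, 6.54 and 6.60 in vehicle jaws, a difference of 0.65 (SE 0.19). Here TCDD replicate 1 stood above all the other arrays, and the difference was 0.40 without it. moxd1, of the copper-dependent monooxygenase family of dopamine beta-hydroxylase, had 6.39, 5.95 and 6.59 in TCDD jaws and 5.37, 5.74 and 5.70 in vehicle jaws, a difference of 0.71 (SE 0.24).

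Actin handling and membrane transport were the roles of most of the rest of the 20. wipf2a codes for a WASP-interacting protein that helps actin filaments to branch, and had 7.74, 7.63 and 7.64 in TCDD jaws and 7.39, 7.26 and 7.01 in vehicle jaws, a difference of 0.45 (SE 0.11). myo1ea codes for a class I myosin, a motor that links actin to membranes, and had 7.05, 6.84 and 7.28 in TCDD jaws and 6.59, 6.77 and 6.40 in vehicle jaws, a difference of 0.47 (SE 0.15). The wipf2a arrays were clearly apart, whereas those of myo1ea were 0.07 apart and its difference was 0.26 without replicate 3 of every group and 0.31 with array weights. mfsd6b codes for a membrane protein of the major facilitator family, and had 7.03, 6.74 and 6.95 in TCDD jaws and 6.18, 6.57 and 6.46 in vehicle jaws, a difference of 0.50 (SE 0.10, limma adjusted p = 0.0335), which was 0.33 without replicate 1 of every group. slc31a1 codes for the copper importer CTR1. It had 7.76, 7.99 and 8.07 in TCDD jaws and 7.43, 7.70 and 7.32 in vehicle jaws, a difference of 0.45 (SE 0.24), which was 0.23 when arrays were weighted by their spread. letm2, a relative of the inner mitochondrial membrane gene letm1, had 8.19, 8.15 and 8.20 in TCDD jaws and 7.38, 7.98 and 7.80 in vehicle jaws, a difference of 0.46 (SE 0.12). Its TCDD arrays were nearly equal and its vehicle arrays were spread, as for slc17a5 and nbr1a, and its difference was 0.29 both without vehicle replicate 1 and with array weights.

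**Figure D2:**
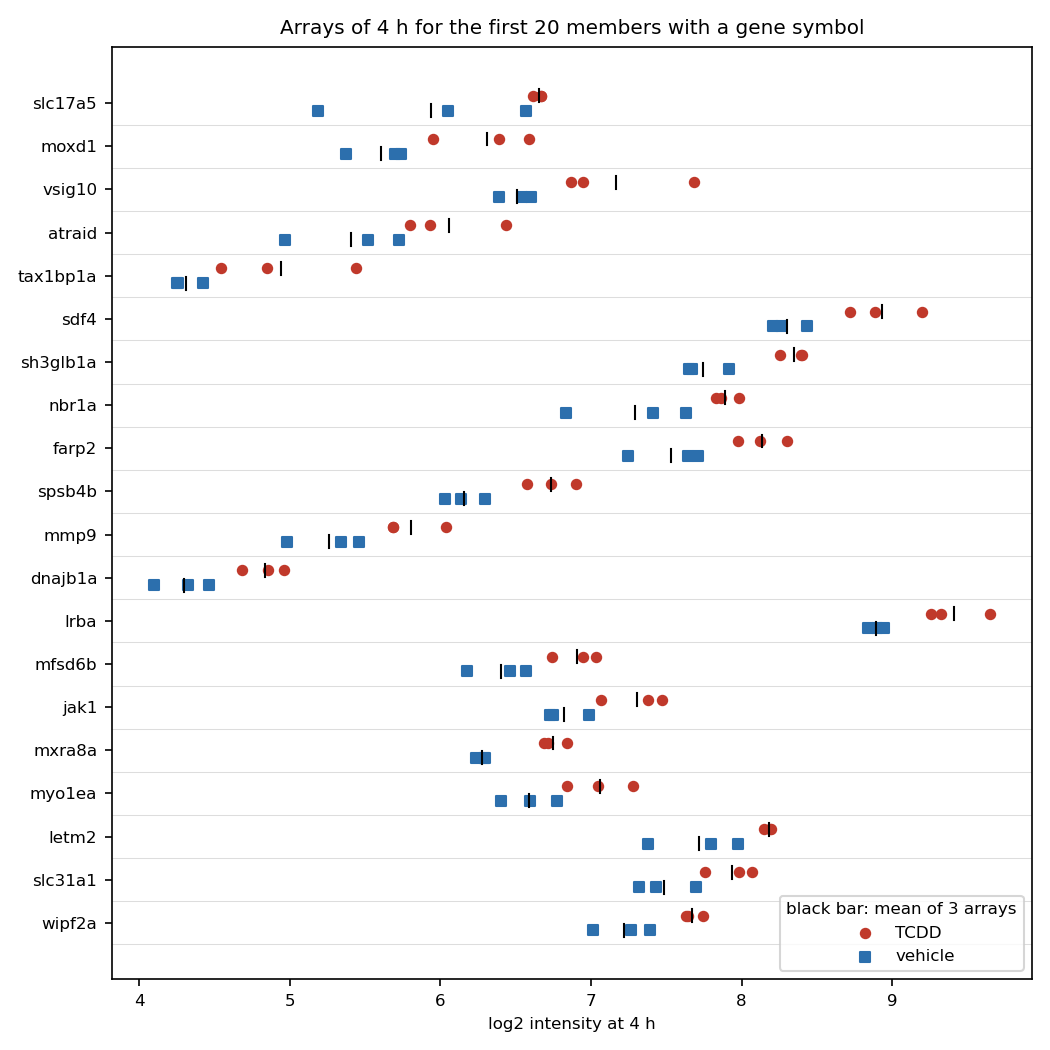
Log2 intensity (horizontal axis) in the 3 TCDD arrays (red circles) and the 3 vehicle arrays (blue squares) of 4 h for the first 20 members with a gene symbol, with the mean of each as a black bar. The gap between treatments is as wide as 0.40 in mxra8a and as narrow as 0.05 in slc17a5.

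The other 22 members with a symbol had differences of 0.30 to 0.44 at 4 h, with a median of 0.37, and the 18 without a symbol 0.30 to 0.67, with a median of 0.39. Both ranges lie mostly under that of the first 20, which ran between 0.45 and 0.72, as the ranking fixes for the named ones. They are named here outside the rule for named genes, after their values were seen. Among them were genes of transcription and RNA: klf11b (0.44) and foxp1a (0.39), which code for DNA-binding factors, nrip1b (0.31), a corepressor of nuclear receptors, gtf2f1 (0.38), a subunit of the general factor TFIIF, and papola (0.35), a poly(A) polymerase. Cell death and growth control were represented by baxa (0.35), the zebrafish form of the mitochondrial death effector BAX, tp53bp2a (0.38), whose mammalian form binds p53, and wwox (0.34). acvrl1 (0.43) codes for ALK1, a BMP receptor of endothelium. The cytoskeleton and cullin ligases were represented by cep350 (0.35), a centrosome protein, katnbl1 (0.37), a regulator of the microtubule-severing enzyme katanin, and dcun1d2b (0.40), which aids cullin neddylation. phyh (0.35) codes for the peroxisomal enzyme that starts the breakdown of phytanic acid. Others were ldlrad3, swt1, lemd1, ptpn3, mycbp, rassf7b, si:dkeyp-115e12.6 and gpatch3, between 0.30 and 0.41. The narrowest gap of a named member was 0.00672, in rassf7b, which had 5.99, 6.02 and 5.90 in TCDD jaws and 5.64, 5.37 and 5.89 in vehicle jaws. Its lowest TCDD array thus all but met its highest vehicle array, and gpatch3 was as close, with a gap of 0.00741.

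Within 4 h the members did not follow 1 array. TCDD replicates 1, 2 and 3 gave the highest value of the 6 arrays in 26, 10 and 24 members, and vehicle replicates 1, 2 and 3 the lowest in 28, 9 and 23. The median member stood 0.48, 0.35 and 0.45 above the vehicle mean in TCDD replicates 1, 2 and 3, and -0.05, 0.07 and 0.04 from it in the vehicle ones. TCDD replicate 2 was thus the lowest of its group and vehicle replicate 2 the highest of its group. Members were less spread than other probe sets within each group: the median SD over 3 arrays was 0.148 with TCDD and 0.160 in vehicle, against 0.243 and 0.223 for the 8781 probe sets, which a choice of groups that do not overlap favours. The 5′ minus 3′ log2 signal of 3 control transcripts, a sign of RNA quality or labelling, differed between these arrays. Of the controls, dap is a bacterial transcript, so its signal bears on labelling and not on the quality of the jaw RNA. For acta1 it was -7.73, -6.37 and -9.33 in the TCDD arrays and -7.47, -7.48 and -7.29 in the vehicle arrays. For gapdh it was -2.16, -1.21 and -2.09 in the TCDD arrays and -1.18, -1.94 and -1.40 in the vehicle arrays, and for dap -0.79, -0.64 and -1.32 in the TCDD arrays and -0.24, -1.35 and -0.59 in the vehicle arrays. The groups overlapped in all 3 controls. Within both treatments the order of the arrays by gapdh was the reverse of their order by the median member, and so was the order by dap within vehicle. TCDD replicate 2, where the median member was lowest of its group, had the highest value of its group for each control. The part of this in the members' values was not tested.

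At the other times the same 60 members gave medians, relative to the vehicle mean, of 0.00, 0.17 and -0.10 in TCDD replicates 1, 2 and 3 at 1 h, of -0.02, 0.03 and 0.00 at 2 h, and of 0.05, 0.10 and -0.10 at 12 h. At 1 and 12 h the TCDD arrays thus stood on both sides of the vehicle mean, and a small average difference there can hold arrays that differ from each other. In slc17a5 and tax1bp1a all TCDD arrays were above all vehicle arrays at 2 h as well, with differences of 0.06 and 0.10. The same held at 12 h for vsig10 (0.19), mmp9 (0.14), dcun1d2b (0.11) and 1 member without a symbol (0.11). With TCDD above, these are 0 of 60 members at 1 h, against 7.6% of all tested probe sets, 2 of 60 at 2 h, against 4.69%, and 4 of 60 at 12 h, against 4.84%. With TCDD below, they are 1 of 60 at 1 h (tp53bp2a), against 4.99%, 0 of 60 at 2 h, against 6.82%, and 1 of 60 at 12 h (si:dkeyp-115e12.6), against 5.27%. The choice capped the size of all of these differences. For mmp9 the differences at 1, 2 and 12 h were 0.19, 0.13 and 0.14, all in the direction of its 4 h difference and within its SE of 0.31, so a limit of 0.2 does not show that it was level at those times.

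**Figure D3:**
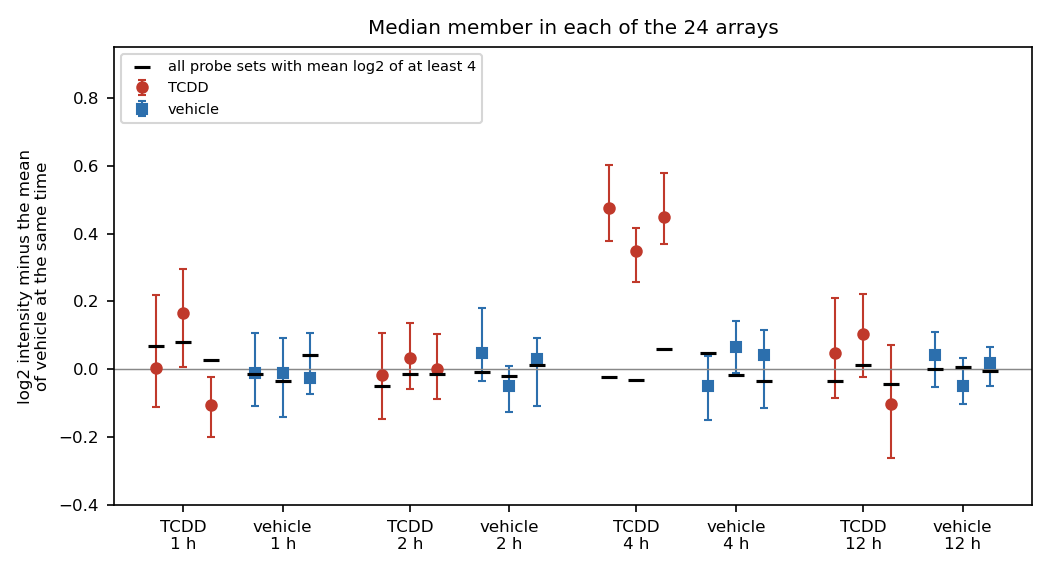
Median over the 60 members of the log2 intensity minus the vehicle mean of the same time (vertical axis) in each of the 24 arrays, TCDD in red and vehicle in blue, with bars for the quartiles over members and black dashes for the median of the 8781 probe sets with a mean of at least 4. The 3 TCDD arrays of 4 h sit at 0.48, 0.35 and 0.45 while those of the other times lie between -0.10 and 0.17.

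Outside the 4 h arrays the members' deviations from their group means can be compared without the contrast that chose them, although those arrays also set the limit of 0.2. Over these 18 arrays the 1770 pairs of members had a median correlation of 0.11, and 63.0% were above 0, against 0.0094 and 51.0% for pairs of the 8781 probe sets. Both members of a pair were read on the same arrays, so a deviation of a whole array can reach both. The 8781 were not held to the limit of 0.2, so nothing is read from the contrast with them. This is a description, and the correlation is weak.

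Other probe sets for the same genes were not used in the choice, and limma's test at 4 h was read for them. They come from the same arrays as the members, so they are not a separate experiment. There were 12 of them, for 8 member genes, and 9 had a mean log2 intensity of at least 4. Of the 12, 7 were above vehicle on average, against 47.6% of all tested probe sets. In none were all TCDD arrays above all vehicle arrays, against 3.61% of all tested probe sets. The 12 are few, so nothing is read from these counts. Their median difference was 0.04, with a range of -0.46 to 0.36. None passed limma's test, the lowest adjusted p was 1.00, and 0 had an unadjusted p under 0.05. For farp2 the other probe sets had differences of 0.35 (SE 0.30) and 0.36 (SE 0.26), against 0.60 for the member. For katnbl1 and cep350 the second probe set had 0.35 (SE 0.23) and 0.27 (SE 0.19), against 0.37 and 0.35. In these 3 genes the mean differences leaned the same way, within wide errors, but single arrays did not always follow. The second katnbl1 probe set was dim, at a mean level of 3.40, and its difference rested on TCDD replicate 2. It had 3.21, 4.22 and 3.33 in TCDD jaws and 3.32, 3.23 and 3.15 in vehicle jaws. For farp2, TCDD replicate 2 was the lowest TCDD array of both other probe sets, at 3.83 and 3.95. In the farp2 member it was the highest. For vsig10 the second probe set had only 0.10 (SE 0.29), against 0.65 for the member. For letm2 and slc31a1 the second probe set had -0.30 (SE 0.31) and -0.17 (SE 0.43), and for papola the other 3 had 0.01, -0.31 and -0.46 (SE 0.19, 0.63 and 0.77), so in these the direction of the member was not seen again. The errors are wide enough that most of these probe sets could hold a difference of the member's size without it being detectable. Those of tp53bp2a, at mean levels of 2.66 and 2.69, were about as dim as the reporter probe sets.

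The zebrafish genome kept many genes in pairs of duplicates, named a and b, after a genome doubling in an ancestor of teleost fish. For 8 members the duplicate was on the array, with 10 probe sets and a median difference of 0.09. Of the 10, 9 were above vehicle, against 47.6% of all tested probe sets. In 2 all TCDD arrays were above all vehicle arrays, against 3.61% of all tested probe sets. The 10 are few and 3 of them are of nbr1b, so nothing is read from these 2 counts. One of the 10 passed limma's test. dnajb1b, the duplicate of dnajb1a, had 8.09, 8.74 and 8.78 in TCDD jaws and 7.28, 7.26 and 6.43 in vehicle jaws, and was higher with TCDD by 1.54 in log2 units (SE 0.27, adjusted p = 0.00792 by limma). Its difference was larger than that of dnajb1a. At 1, 2 and 12 h it was 0.53, -0.05 and 1.05 (SE 0.27 each), of which none passed limma's test (adjusted p = 0.0938 at 12 h). At 1 h and 12 h, too, all TCDD arrays of dnajb1b were above all vehicle arrays. dnajb1a had -0.15 at 12 h, where the choice held it under 0.2 in size, so the 2 genes are not compared there. The call for dnajb1b held in 10 of 17 refits and was lost, among others, without TCDD replicate 3 and without vehicle replicate 3, with adjusted p between 0.00355 and 0.358 over the refits. The duplicates of the autophagy members had differences of 0.08 (SE 0.11) for tax1bp1b, in which all TCDD arrays were above all vehicle arrays, 0.07 (SE 0.14) for sh3glb1b and 0.41, 0.06 and 0.19 for the 3 probe sets of nbr1b (SE 0.27, 0.31 and 0.14), and none of these passed. spsb4a had 0.06, myo1eb -0.01, klf11a 0.10 and dcun1d2a 0.23. Whether a member and its duplicate differed was not tested.

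**Figure D4:**
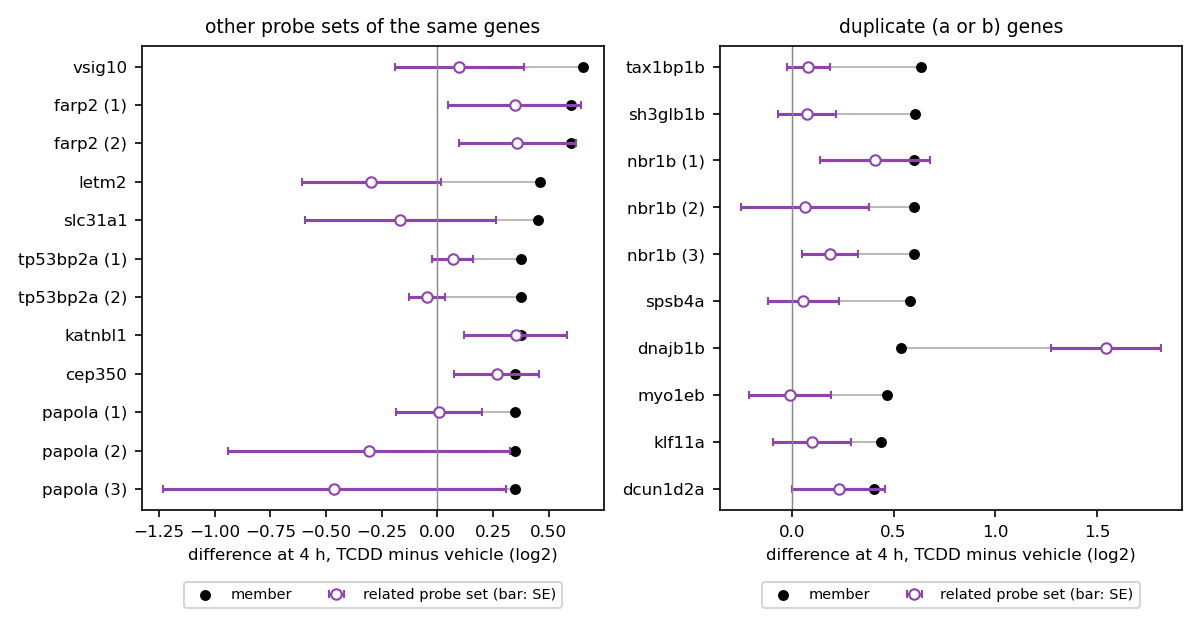
Difference at 4 h, TCDD minus vehicle on the log2 scale (horizontal axis), for other probe sets of member genes (left) and for duplicate genes (right) as open circles with SE bars, and for the member itself as a black point. Other probe sets run between -0.46 and 0.36. All lie under their member, an order that the choice of members by large differences favours. On the right, dnajb1b at 1.54 is the one that lies far above its member.

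The pathways around the members were read from lists fixed for this tissue and from 4 lists added after the members were seen. In the heat shock and protein folding list, 2 of 25 probe sets rose by limma's test at 4 h, and none fell. Besides dnajb1b this was hsp70.3, the stress-inducible chaperone that dnajb1 proteins serve. It had 8.40, 8.89 and 8.60 in TCDD jaws and 5.65, 6.51 and 5.05 in vehicle jaws and was higher with TCDD by 2.89 in log2 units (SE 0.30, adjusted p = 2.97e-05 by limma). The call for hsp70.3 held in 16 of 17 refits and was lost in the fit of the 6 arrays of 4 h alone. hsp70.3 was thus higher at 4 h by far more than any member, with differences of -0.48, 0.30 and 0.40 at 1, 2 and 12 h, of which none passed. It was not a member because those differences exceeded 0.2, and the probe set's type can also pick up near-identical hsp70 copies. The median of the whole list was 0.05.

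In the autophagy list, drawn up after the members were seen, 35 probe sets of 32 genes were not members. Of these 22 were above vehicle, which is 62.9%, against 47.6% of all tested probe sets, and their median difference was 0.11. In 4 of them, calcoco1a, atg101, atg12 and tax1bp1b, all TCDD arrays were above all vehicle arrays. That is 11.4%, against 3.61% of all tested probe sets and 5.64% of those with a mean log2 intensity of at least 4. The largest differences were 0.70 in calcoco1a, which codes for a cargo receptor related to that of tax1bp1a, and 0.61 in ulk1b, the kinase that starts autophagosome formation. sqstm1, which codes for the cargo receptor p62, went the other way at -0.59. By limma's test 0 of the 35 passed, and 3 had an unadjusted p under 0.05. The list was prompted by the members and holds tax1bp1b, the duplicate of a member. Nothing is therefore read from these shares.

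Around jak1, the 8 other probe sets of the JAK and STAT list had a median of -0.01, with -0.41 in stat3 and 0.69 in socs3b, a feedback inhibitor of the pathway. Around mmp9, the 10 other probe sets of matrix metalloproteinases and their inhibitors had a median of 0.09, with 0.55 in the collagenase gene mmp13a and 0.44 in mmp14b. Of these 10, 6 were above vehicle on average, against 47.6% of all tested probe sets. In 1 all TCDD arrays were above all vehicle arrays, against 3.61% of all tested probe sets, and nothing is read from so few. Around acvrl1, the 24 other probe sets of BMP and TGF-beta receptors and SMADs had a median of -0.01. None of the 3 lists held a probe set that passed limma's test at 4 h. In the inflammation list, which held mmp9, 0 of 21 passed, and its median was -0.00.

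The same rule was applied at each time and in each direction to set the 114 transcripts in view. As a share of the probe sets with small differences at the other 3 times, those above vehicle at a single time were 13.3% at 1 h, 4.83% at 2 h, 6.50% at 4 h and 6.91% at 12 h. Those below vehicle were 5.45%, 7.73%, 2.85% and 7.06% at the same times. The median size of the 60 kept was 0.66 for the higher ones at 1 h, 0.31 at 2 h, 0.43 at 4 h and 0.58 at 12 h. Transcripts of this kind were thus found at every time, and at 4 h those above vehicle outnumbered those below by 114 to 50. These groups were chosen by their values, so none of their counts or sizes is a test.

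**Figure D5:**
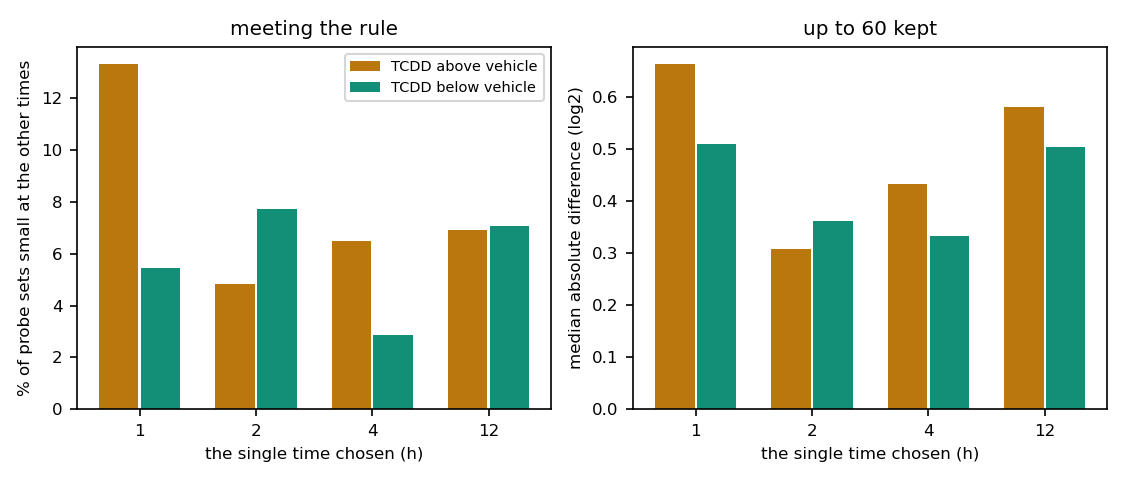
Share of probe sets with small differences at the other 3 times that were above (ochre) or below (green) vehicle in all arrays at the single time on the horizontal axis (left), and median absolute difference of up to 60 kept (right). Shares run between 2.85% and 13.3%, and the bar for higher at 4 h, 6.50%, is close to those of 12 h.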

How the data were processed

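RNA of pooled jaws was hybridised to 24 1-colour Affymetrix arrays, 3 in each of 8 groups set by the sample titles. The deposited values are linear intensities per probe set. RMA and GCRMA are named, with no role or order, per the submitters' processing notes; the genome build and detection calls were not given in the sources used here. Median intensities were 22.1 to 24.1 at 1 h, 33.4 to 34.9 at 2 h, 25.9 to 27.9 at 4 h and 13.9 to 15.1 at 12 h, so levels were compared only within a time. Comparisons at different times share no arrays but share the fitted spread.

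Values were taken to log2 unchanged. The 115 control probe sets were dropped, and the 15502 that remained were fitted by limma 3.58.1 in R 4.3.3 (1 mean for each of 8 groups, 16 residual degrees of freedom, eBayes, TCDD minus vehicle at each time) with Benjamini-Hochberg adjusted p under 0.05. The fit was tested on simulated data. No 2 arrays of a group held identical values. Symbols came from GEO's platform annotation, which can be old, and were updated through Entrez numbers to RefSeq names of assembly GRCz12tu, with no coordinates used: 10795 probe sets had 1 symbol, 135 several and 4572 none. Sequences of probes and promoters were not used here.

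The members and lists were chosen with earlier results of these data known, and 4 lists were added after the members were seen. Values in every array of 4 h were given for the first 20 members with 1 symbol and for members in a fixed list. Genes named outside this rule were chosen after their values were seen. Alternatives were a block for the replicate number, quantile normalization, an offset of 16, a filter on dim probe sets, a trend with robust settings, array weights, the arrays of 4 h alone, other limits of the rule and leaving out arrays. No value was tested by a count model.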

Additional observations from a re-analysis of the deposited data

Results flagged for a closer look

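In 2 members the TCDD and vehicle arrays lay fully apart in opposite directions at different times. For tp53bp2a, whose mammalian form binds p53, all TCDD arrays were below all vehicle arrays at 1 h, with a difference of -0.20, while its difference at 4 h was 0.38. For si:dkeyp-115e12.6, all TCDD arrays were below all vehicle arrays at 12 h, with a difference of -0.17, while its difference at 4 h was 0.33. These are 1 of 60 members at 1 h, against 4.99% of all tested probe sets, and 1 of 60 at 12 h, against 5.27%. The difference between times was not tested for either, since the choice of members used all 4 times.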

How the results depend on the processing

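The median difference was 0.43, and 0.43 with the replicate block. Each group held every replicate number, so the block could not change a difference. The median difference was 0.41 after quantile normalization, 0.35 with an offset of 16 and 0.39 to 0.50 when arrays were left out. It was not computed in the other settings. The count of members called by limma, 4, became 2 of the 51 still tested without dim probe sets and 1 with trend and robust settings. The calls over all probe sets, 72 of 15502, became 71 of 7751 and 62 of 15502 in these settings. On the arrays of 4 h alone the count of members called was 0 (45 with an unadjusted p under 0.05). It was 2 without the 12 h arrays (a setting chosen after seeing the data) and 0 to 6 over fits that left out arrays. These counts are of any members. With array weights 3 members were called, 2 of them among the first 4. Without replicate 2 of every group 4 were called, 1 of them among the first 4. Over all probe sets the 72 calls became 7 on the arrays of 4 h alone and 16 to 77 when arrays were left out, with 38, 39 and 41 without TCDD replicate 1, vehicle replicate 1 and vehicle replicate 3, and 22 without replicate 3 of every group. Array weights, listed among the alternatives, gave 104 calls. The replicate number as a block gave 62 calls, 3 of them members. The numbers were not treated as pairs, since deviations of same-numbered arrays correlated between -0.46 and 0.25 over 12 pairs, with 1 over 0.1. Those of differently numbered TCDD and vehicle arrays at 4 h correlated between -0.25 and 0.49. Whether arrays shared a time course under other numbers was not tested. Of the 60 members, the rule chose 33 again with an offset of 16, 35 with a minimum mean of 6, 31 with a limit of 0.3 at the other times, 25 with medians of 3 arrays and 10 to 40 without single arrays or replicate numbers. Without TCDD replicate 2 it chose 27, without TCDD replicate 3 33, and without vehicle replicates 1, 2 and 3 39, 31 and 36; without replicates 1, 2 and 3 of every group it chose 12, 10 and 15. None of the 319 differences of the first 20 named members over 17 settings reversed. Of them, 5 moved by more than that gene's own SD between arrays. The choice put all TCDD arrays above all vehicle arrays at 4 h. Leaving out arrays, weighting them or adding an offset could therefore not reverse a difference. Settings that changed only the fit, such as trend with robust settings, left the differences as they were. Nothing is read from the lack of reversals. Where leaving out 1 array moved a difference by over 1.5 times, the value stands beside that gene in the report of 4 h values. The other probe sets of member genes had 0 calls in each of their refits. Why the counts moved was not tested, beyond fewer arrays or probe sets in some settings.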
